A study of Petromyzon marinus and Lampetra planeri with 28 samples.

Results

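In the dissected sea lamprey dorsal neural tube (DNT), 11 loci stayed at T20 within a set range of their mean T18 transcript level and were lower at T21. They are the 11 of 72171 assembled loci that met a rule set on the normalised counts: at least 100 in every T18 and T20 library, a mean at T20 between 0.67 and 1.5 times the mean at T18, and a highest T21 value of at most 0.5 of the lowest T18 or T20 value. Of the 72171 loci, 10273 had at least 100 normalised counts in every T18 and T20 library and 8542 of these also kept within the range set for T20 over T18. A normalised count is the number of read pairs counted on a locus divided by the size factor of its library. Of the 11 loci, 10 are described below one by one, and counts given over the 11 cover all of them. Because these same values chose the loci, their fall at T21 is described below and not tested.

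The named genes among the 10 have varied functions. They are Prdm1, a zinc finger repressor; Gse1, a nuclear protein found with chromatin-modifying complexes; RECK, a membrane-anchored inhibitor of matrix metalloproteinases; tmem2, a cell-surface hyaluronidase; HSD3B, a steroid dehydrogenase; Cdkl1, a kinase of the CDC2-like family; and MPPED2, a metallophosphoesterase. The other 3 loci, XLOC_015032, XLOC_035092 and XLOC_017729, have no gene name.

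The neural crest is a vertebrate cell population that arises at the border of the neural plate, comes to lie in the dorsal neural tube and then leaves it to form pigment cells, peripheral neurons and much of the head skeleton. Leaving the neural tube involves changes in transcription factors, in cell adhesion and in the extracellular matrix. In zebrafish, Prdm1 is needed for the neural crest and for sensory neurons of the dorsal neural tube.

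The RNA-seq compared 3 stages of sea lamprey, Petromyzon marinus, with no treatment or mutation. Stage T18 had 3 libraries, stage T20 had 2 and stage T21 had 3, and the cranial DNTs of 30 embryos (T18) or 35 embryos (T20 and T21) were pooled for a library. ATAC-seq, which maps open chromatin, covered T20 and T21 DNTs and T23 heads of sea lamprey (9 libraries) and of brook lamprey, Lampetra planeri (10 libraries). The dissected tissue is a mixture of neural crest, neural and ectodermal cells, so that fewer cells of a type and less RNA per cell cannot be told apart. Nothing in the labels ties libraries to separate spawnings, and p-values measure the spread between these libraries.

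Total counts ran from 12172421 to 91015285 per library. Neural crest and dorsal neural tube markers were present at every stage, with a summed level over 13 loci of 10794 to 11434 at T18, 16583 and 23592 at T20 and 28446 to 29080 at T21. The T20 libraries stood apart from each other. Surface ectoderm markers (10 loci) summed to 37944 in T20 replicate 1 and 82156 in T20 replicate 2, against 17672 to 21574 at T18 and 114983 to 134901 at T21. Endoderm markers (5 loci outside the 11) summed to 12516 to 14632 at T18, 1172 in T20 replicate 1, 499 in T20 replicate 2 and 212 to 292 at T21, and mesoderm and muscle markers (6 loci) to 865 to 1620, 169 to 218 and 112 to 163. Neural tube markers (9 loci) summed to 650 to 944 at T18, 1758 and 1514 at T20 and 2085 to 2545 at T21, and floor plate and notochord markers (7 loci) to 9517 to 11609, 15124 and 12436, and 18325 to 19394. Most floor plate and notochord loci went against their sum. Of the 7, 5 were called lower and 2 higher at T21 than at T18 by edgeR, against 14.7% and 18.9% of all loci. Their median log2 fold change was -3.75, so this sum does not stand for most of its loci. Other lists were mixed too in the edgeR calls at T21 against T18. In neural crest 3 of 13 tested loci were lower and 9 higher, and in surface ectoderm 2 of 10 were lower and 7 higher. In neural tube 1 of 8 was lower and 6 higher, and in mesoderm and muscle 3 of 4 were lower and 1 higher. All 5 endoderm loci were lower, and 2 of the 5 were called lower at T20 than at T18. No sum stands for a uniform change of its list. T20 replicate 2 lay nearer to the T21 libraries in the neural crest, surface ectoderm and endoderm sums, and T20 replicate 1 in the mesoderm, neural tube and floor plate sums. Immediate early and stress genes, which respond within minutes to stimulation or tissue handling, were highest at T20. Their 10 loci summed to 2621 to 3098 at T18, 17460 and 10771 at T20 and 4452 to 7031 at T21, and all 10 were called higher at T20 than at T18 by edgeR (10.8% of all loci were), with a median log2 fold change of 3.70. The part of these differences in the fall of the 11 loci was not tested.

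Which loci meet the rule depends on the T20 libraries. Without T20 replicate 2, 42 loci met it, the 11 among them. Without T20 replicate 1, 11 loci met it, of which 6 were among the 11 described here. Without T21 replicate 3, 20 met it. The 11 had to be among these, since leaving out a T21 library can only lower the highest T21 value. Prdm1, HSD3B and XLOC_015032 met every one of the 15 alternative forms of the rule, whereas Gse1 met 10, the fewest of the 11. Some of these forms could not be failed. A limit of 0.6 at T21, a floor of 50 and leaving out a T21 library only loosen the rule, so all 11 had to meet them.

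**Figure D1:**
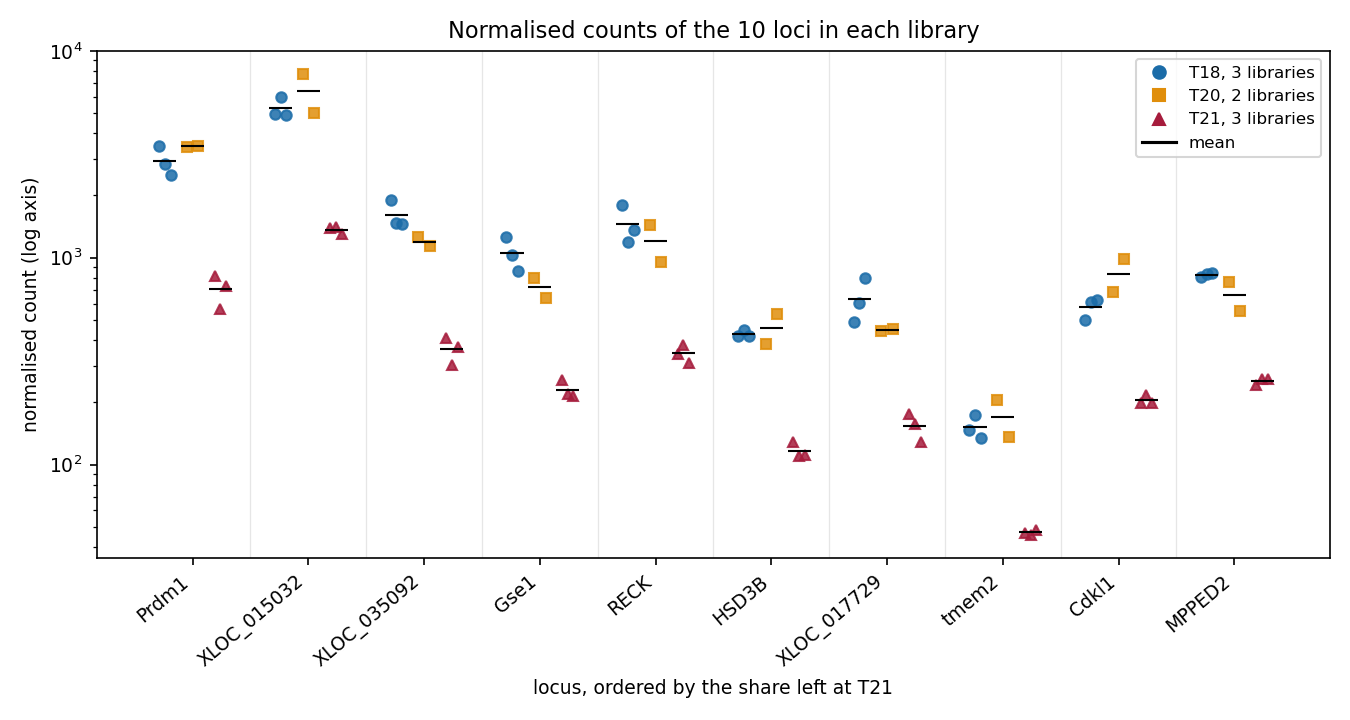
Normalised counts (log axis) of the 10 loci in each of 8 libraries, with T18 as circles, T20 as squares, T21 as triangles and the mean of each stage as a line, ordered by the share of the level left at T21. In every locus the T21 points lie below all T18 and T20 points, and the share left runs from 22.4% in Prdm1 to 33.4% in MPPED2.

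Prdm1 (XLOC_000324) lies on the plus strand of scaf_00001 from 24965734 to 25020390. Its normalised counts were 3454, 2841 and 2508 at T18, 3416 and 3480 at T20 and 815, 566 and 733 at T21. The T20 libraries were close, the lower one at 0.982 of the higher, and 1 of them lay within the T18 range. The T21 mean was 4.45-fold lower than the mean over T18 and T20. Of the 6 other tested loci named for the PRDM family of zinc finger factors, 0 were called in either direction between T20 and T21 by edgeR or by DESeq2. By edgeR, 4.4% of all loci were lower and 5.4% higher, so 0 of 6 is not read as a trait of the family. At an unadjusted edgeR p under 0.05, 2 of the 6 were higher, with no share of all loci at that level at hand. PRDM12, which acts in sensory neurons in vertebrates, stood at 2.94 at T18, 341 at T20 and 588 at T21. PRDM14, a factor of germ cells and pluripotency in mouse, stood at 2051, 103 and 53.7, so that it had fallen by T20.

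Gse1 (XLOC_022369) lies on the plus strand of scaf_00020 from 14338044 to 14344497. Its normalised counts were 1258, 1033 and 860 at T18, 800 and 639 at T20 and 257, 219 and 215 at T21. Both T20 values lay below all T18 values, and its ratio of T20 to T18, 0.685, was the lowest of the 11 and close to the limit of the rule. Of the 11 loci, Gse1 was the only one called lower at T20 than at T18 by edgeR, against 6.51% of all 25317 loci tested. None was called higher, against 10.8% of all loci, and the rule limited this contrast too.

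RECK (XLOC_018642) lies on the plus strand of scaf_00016 from 13963138 to 14007557. Its normalised counts were 1797, 1186 and 1356 at T18, 1445 and 950 at T20 and 342, 379 and 311 at T21. The stage means were 1446 ± 315 (SD, n = 3), 1197 ± 351 (SD, n = 2) and 344 ± 34.1 (SD, n = 3), and the T21 mean was 3.91-fold lower than the mean over T18 and T20. A second RECK locus, XLOC_006913, followed the same course at a lower level, with 368, 275 and 241 at T18, 297 and 218 at T20 and 111, 96.4 and 104 at T21. It narrowly missed the rule, with its highest T21 value at 0.509 of the lowest earlier value, and its edgeR log2 fold change between T20 and T21 was -1.33 ± 0.24 (SE; adjusted p = 0.00426). Another locus, XLOC_006912, whose name joins RECK to 3 other genes, spans XLOC_006913 on the same strand. Its mean rose from 305 at T18 to 502 at T20 and was 610 at T21, with no call between T20 and T21 (edgeR adjusted p = 0.36). Multi-mapping reads entered the counts, and similar copies may therefore have shared them.

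Other genes of matrix adhesion and pericellular proteolysis went both ways. Of 21 other loci tested, 3 were lower at T21 than at T20 (the RECK locus XLOC_006913, ITGB1 XLOC_006853 and ADAM10 XLOC_030946) and 6 were higher by edgeR, where 4.4% of all loci tested were lower and 5.4% higher. The median log2 fold change of the 21 was 0.39, against 0.01 over all loci. TIMP3, a secreted inhibitor of metalloproteinases, rose from 385 at T20 to 1108 at T21 (log2 fold change 1.53, edgeR adjusted p = 0.00195). MMP13, a collagenase, rose from 17.9 to 85.6 (log2 fold change 2.24, edgeR adjusted p = 0.0135). TIMP3 and MMP13 were picked after the values were seen, and the protease ADAM10 of the same list was lower at T21. No joint change of inhibitors and proteases is read from them.

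The gene tmem2 (XLOC_008364) is on the minus strand of scaf_00006 from 16320422 to 16326846. It had the lowest level of the 11, with normalised counts of 146, 174 and 135 at T18, 205 and 136 at T20 and 46.7, 45.9 and 48.5 at T21. The T21 libraries were nearly equal, with a ratio of highest to lowest of 1.06, and the raw counts behind them were 24, 30 and 131.

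HSD3B (XLOC_003742), on the minus strand of scaf_00003 from 13803301 to 13811098, had 417, 446 and 419 normalised counts at T18, 381 and 536 at T20 and 128, 110 and 111 at T21. The T18 libraries were close together, and the T20 libraries lay on either side of them. Cdkl1 (XLOC_038015), on the plus strand of scaf_00041 from 8250867 to 8313967, had 497, 609 and 624 at T18, 680 and 987 at T20 and 198, 217 and 198 at T21. Both T20 values were above all T18 values, and its ratio of T20 to T18, 1.44, was the highest of the 11 and close to the limit of the rule. None of the 4 other loci named Cdkl1 was called lower at T21 by edgeR. Of all loci, 4.4% were lower than at T20 and 14.7% lower than at T18, so nothing is read from this count. XLOC_026466, XLOC_026467 and XLOC_026468 were called higher at T21 than at T18 (edgeR adjusted p = 0.00097, 0.0041 and 5.6e-06), as were 18.9% of all loci. They lie on the minus strand of scaf_00025, and whether they are separate genes was not tested. XLOC_026468 stood at 49.6 to 67.0 at T18, 123 and 227 at T20 and 335 to 339 at T21, and rose in each interval (edgeR adjusted p = 0.00143 and 0.0450).

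MPPED2 (XLOC_001921), on the plus strand of scaf_00002 from 19213178 to 19281521, had 807, 832 and 845 normalised counts at T18, 767 and 549 at T20 and 243, 260 and 258 at T21. It kept the largest share of its earlier level, 33.4%, and with its highest T21 value at 0.474 of the lowest earlier one it was the locus just inside the limit of 0.5. The next inside were Cdkl1 (0.437), Gse1 (0.402), RECK (0.40) and XLOC_017729 (0.396). The nearest outside were HSPA12A (0.503), XLOC_025596 (0.503), SEMA6A (0.507), the RECK locus XLOC_006913 (0.509) and XLOC_030279 (0.511).

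Of the 3 loci without a name, XLOC_015032 had the highest level of the 11. It is on the minus strand of scaf_00012 from 13677540 to 13686494, and its normalised counts were 4943, 5989 and 4880 at T18, 7740 and 5001 at T20 and 1385, 1403 and 1303 at T21. XLOC_035092, on the plus strand of scaf_00037 from 4352379 to 4402237, had 1889, 1466 and 1459 at T18, 1254 and 1136 at T20 and 411, 303 and 369 at T21. Both of its T20 values were below the T18 values, whereas XLOC_015032 had its highest value at T20. XLOC_017729, on the minus strand of scaf_00015 from 2665824 to 2671665, had 490, 605 and 794 at T18, 442 and 452 at T20 and 175, 158 and 128 at T21.

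In the 10 loci the falls were of similar size, since the T21 mean was 22.4% to 33.4% of the mean over T18 and T20, or 2.99- to 4.45-fold lower. Between T18 and T20 the loci went both ways, with 6 lower and 5 higher on average at T20. In 5 of the 11 loci, among them Prdm1, RECK, tmem2 and XLOC_015032, 1 T20 value lay within the T18 range, and in the other 6 none did. No such share over the 10273 well-counted loci is at hand, so nothing is read from these counts. The word "level" means here that the rule was met, not that T18 and T20 were equal.

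Per kilobase of exon, the order of the 10 loci at T18 was headed by XLOC_015032 (589 normalised counts per kb) and Prdm1 (530 ± 86.7; SD, n = 3), whose ranges overlapped. It ended with Cdkl1 (64.8) and tmem2 (29.4). At T21 the order again began with XLOC_015032 (152) and Prdm1 (127) and ended with Cdkl1 and tmem2 (9.12).

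**Figure D2:**
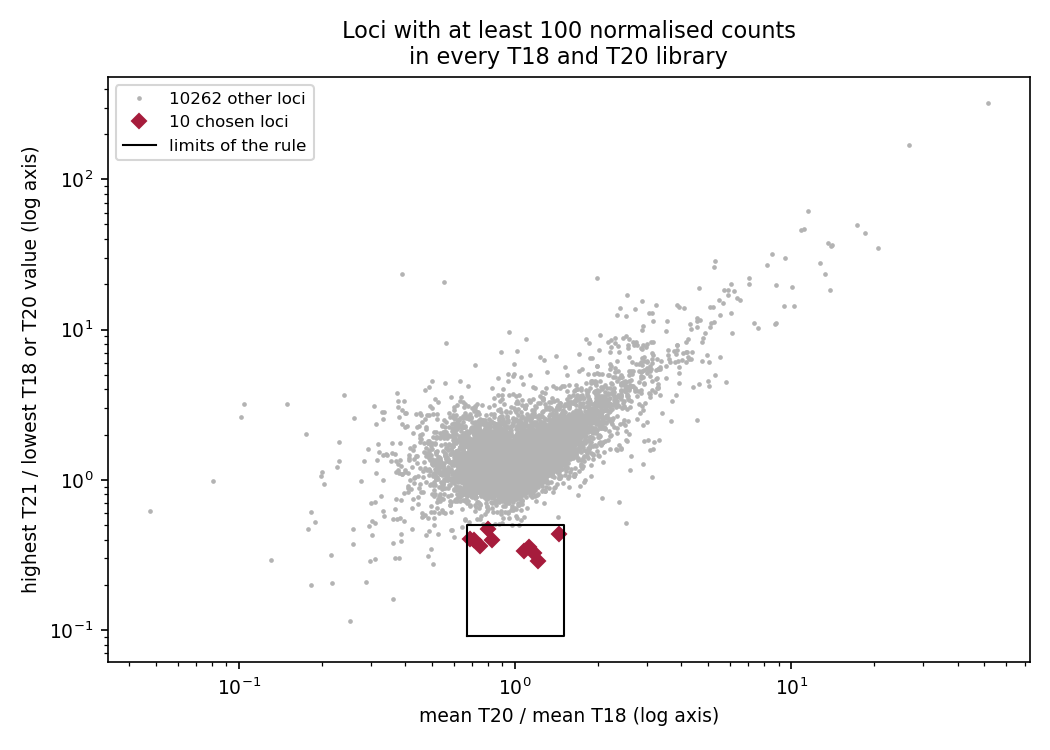
The points are loci with at least 100 normalised counts in every T18 and T20 library, by mean T20 over mean T18 and by highest T21 value over lowest T18 or T20 value (both log axes). The box marks the limits of 0.67, 1.5 and 0.5, and the 10 loci described (diamonds) lie in it, with MPPED2 nearest the limit of 0.5 at 0.474.

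A fall of this size at T21 was uncommon among well-counted loci. Of the 10273 loci, 42 (0.409%) had a highest T21 value of at most 0.5 of the lowest T18 or T20 value. The other 31 of these had a ratio of T20 to T18 under 0.67, and 0 had one above 1.5. The limit is set on the lowest T18 or T20 value, so a locus that rose by T20 had to fall further from T20 to meet it. Shares of the 10273 loci under 0.67 and above 1.5 are not at hand, so nothing is read from this split. Cdkl1, with a ratio of 1.44, rose on average by T20 and fell below its T18 values. With the same limits turned around, 71 loci rose only at T21 when any level at T18 and T20 was allowed. With at least 100 normalised counts required in every T18 and T20 library, the number was 15. The rule for a fall set no floor on its low stage, T21, so the 15 are not like for like with the loci that fell.

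In the edgeR fit, all 11 loci were called lower at T21 than at T20, as were 4.4% of the 25317 loci tested, and all 11 were called lower at T21 than at T18, as were 14.7%. The rule used these contrasts, and nothing is read from the counts. The log2 fold changes between T20 and T21 ran from -1.38 ± 0.15 (SE) for MPPED2 to -2.30 ± 0.15 for Prdm1 in the 10 loci.

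Among hindbrain and axial patterning factors, 39 loci outside the 11 were tested and changes went both ways. Between T20 and T21, 12 were lower and 8 higher by edgeR, against 4.4% and 5.4% of all loci tested, and their median log2 fold change was -0.19. All 39 carry names from the study's lists of selected loci, so the larger shares are not read as a trait of these factors. The lower ones included hox-epsilon1/skap-epsilon (3768 to 283), the retinoic acid hydroxylase CYP26A1 (95.3 to 19.8), hox-beta1 (3772 to 1863), Gbx1 XLOC_006821 (2018 to 983) and MEIS1/MEIS2/meis3-b (6262 to 3280). Both hox-epsilon1/skap-epsilon and CYP26A1 had already fallen at T20. The higher ones included CYP26C1 (647 to 4587). Of these, hox-beta1 (XLOC_018557) and MEIS1/MEIS2/meis3-b kept their level to T20 and met the rule when the limit at T21 was set at 0.6.

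No locus of the axon guidance, secreted Wnt inhibitor, Wnt ligand and receptor, chemokine, IGF and FGF signalling or immediate early gene lists was among the 11. With only 11 such loci among the 10273 well-counted ones, lists of this size would seldom hold any, so nothing is read from their absence. Between T20 and T21 the tested loci of these lists were lower and higher in 6 and 10 of 41, 1 and 1 of 5, 8 and 6 of 25, 0 and 0 of 2, 5 and 2 of 13, and 3 and 1 of 10, in that order, against 4.4% and 5.4% of all loci. These shares were above that of all loci in both directions for every list but the chemokine one, but the lists hold named loci only. Names reach 26.2% of the 10273 well-counted loci and 57.3% of the 75 loci that fell by T20 and then kept their level. The comparison with all loci is therefore not like for like, and nothing is read from it. The chemokine receptor locus cxcr4-b had a mean of 1083 at T18, 1301 at T20 and 243 at T21, but its T20 libraries were far apart, at 2336 in replicate 1 and 266 in replicate 2. Both chemokine loci were lower at an unadjusted edgeR p under 0.05, and DESeq2 called 1 of them lower. No share of all loci at an unadjusted p is at hand, so nothing is read from these counts.

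The 11 loci lie on 11 different scaffolds, and none is within 50 kb of another. All are spliced, as are 95.9% of the 10273 well-counted loci, and all have more than 1 annotated transcript start, against 75.7%. Transcripts number 2 to 7 per locus and the most exons in a transcript run from 2 (XLOC_015032) to 20 (RECK). The median exonic length was 5539 bases, near the 5172 of the 10273 loci, and the median of the most exons was 5 against 8. These shares and medians are descriptions over 11 loci and carry no test.

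In span the loci formed 2 sets with a wide gap between them, which were told apart after the values were seen. In the first set, 6 loci, among them MPPED2 (68344 bases, the longest), Cdkl1, Prdm1, XLOC_035092 and RECK, covered at least 44420 bases. The other 5, XLOC_015032, HSD3B, Gse1, tmem2 and XLOC_017729, covered 5842 to 8955 bases. The median of the 10273 loci, 17812 bases, fell in the gap. In the 10 loci the shares left at T21 overlapped between the sets.

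The peak sets hold positions only. They were pooled over stages and replicates, with no T18 sample, and both species were mapped to the sea lamprey genome, so a peak says that chromatin was open at some stage from T20 to T23 and nothing about the change at T21. Sea lamprey had 236315 peaks (median width 341 bases) and brook lamprey 314377 (median width 319 bases).

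Inside the 11 loci lay 60 sea lamprey peaks and 116 brook lamprey peaks. Of the sea lamprey peaks, 41 were intronic, 11 touched an exon and 8 lay within 1 kb of a transcript start. Of the brook lamprey peaks, 72, 32 and 12 did. By at least 1 base, 30 of the 60 sea lamprey peaks overlapped a brook lamprey peak, and 31 of the 116 brook lamprey peaks (26.7%) overlapped a sea lamprey one. Most peaks were in the long loci, which held 54 and 101 of them. The densities show no excess, with medians of 1.65 sea lamprey and 3.22 brook lamprey peaks per 10 kb of locus, against 2.03 and 3.22 over the 10273 loci. In the long loci the peaks were spread along the gene, with 28 of 54 sea lamprey and 49 of 101 brook lamprey peak centres in the 5′ part of the span up to its midpoint.

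**Figure D3:**
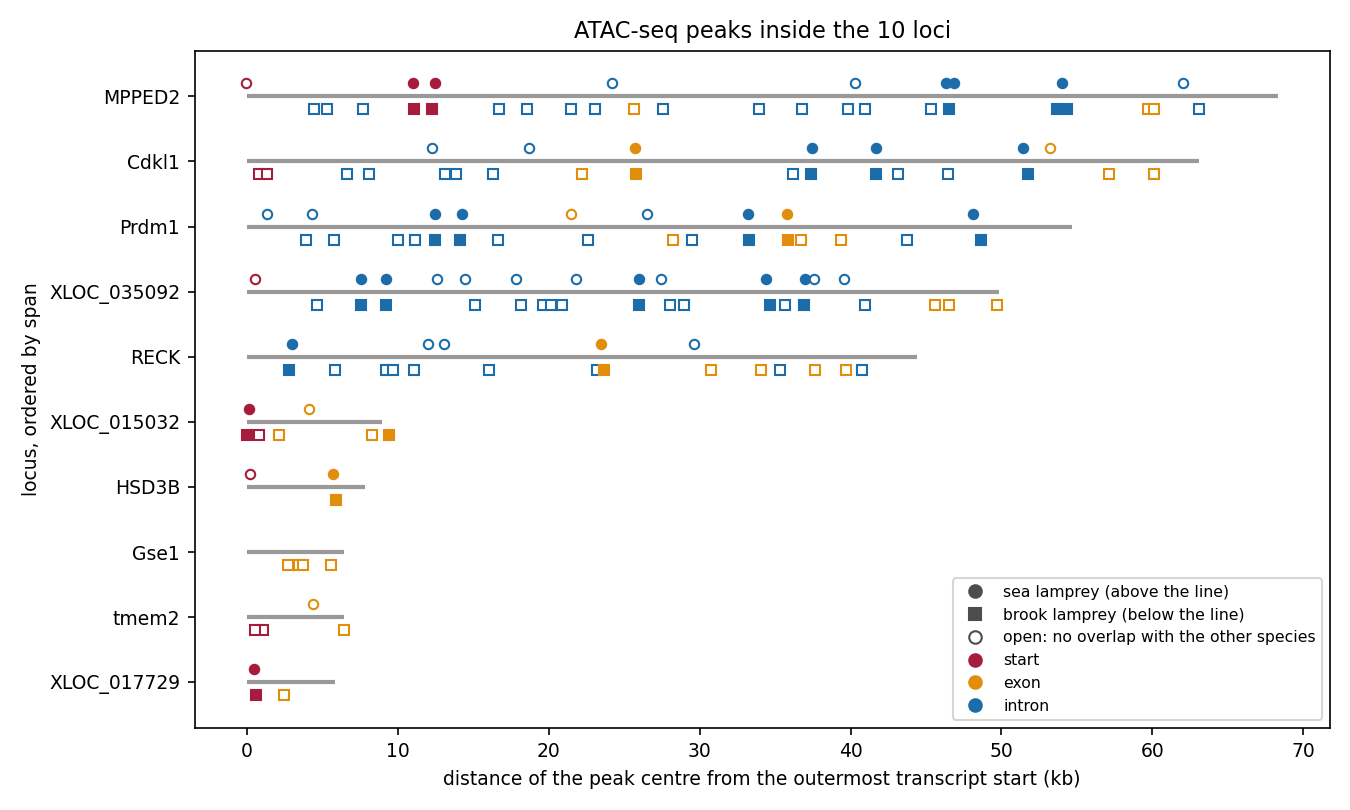
Peak centres inside the 10 loci by distance from the outermost transcript start in kb, with sea lamprey above and brook lamprey below the line that marks the span. Colour gives the place (start, exon or intron) and filled symbols overlap a peak of the other species. Prdm1, MPPED2 and XLOC_035092 hold 5 filled sea lamprey peaks each, and Gse1 holds no sea lamprey peak.

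Prdm1 held 9 sea lamprey and 16 brook lamprey peaks, of which 5 sea lamprey ones were shared, among them intronic peaks from 24978095 to 24978328 and from 25013779 to 25013977 and an exonic one from 25001318 to 25001678. RECK held 5 and 14, with 2 shared. The shared RECK peaks lie in an intron 3006 bases from the outermost start (13966020 to 13966268) and at an exon (13986454 to 13986779).

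XLOC_035092 held the most sea lamprey peaks, 13, and 18 brook lamprey peaks. MPPED2 held 9 and 22, the most in brook lamprey, and Cdkl1 7 and 17. The short loci held 0 to 2 sea lamprey and 1 to 5 brook lamprey peaks each. Gse1 had 0 and 4.

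A sea lamprey peak lay within 1 kb of a transcript start in 7 of the 11 loci (63.6%), against 85.2% of the 10273 loci. The 4 without one were Prdm1, whose nearest peak was 1094 bases away, Cdkl1 (1805), Gse1 (1923) and tmem2 (3481). A brook lamprey peak lay there in 7 loci (63.6%), against 76.2%. The 4 without one were RECK, XLOC_035092, Gse1 and HSD3B. In both species 4 loci had such a peak, and Gse1 had one in neither. At 2000 bases each side the number rose to 10 of 11 in both species. Over all alternatives tried it ran from 5 to 10 in sea lamprey and from 7 to 10 in brook lamprey. No share of the 10273 loci is at hand for these alternatives.

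Sets defined by an earlier fall were described in the same way, with no test of the differences. Of 75 loci that fell by T20 and then kept their level, 73.3% had a sea lamprey peak at a start, and of 30 loci that fell in both intervals 53.3% did. For brook lamprey peaks the order was the other way, at 66.7% and 83.3%. Their median spans were 15745 and 11591 bases.

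Within 50 kb on either side, including the locus itself, the 11 loci had 19 to 38 sea lamprey peaks (median 26, against 25 over the 10273 loci) and 25 to 48 brook lamprey peaks (median 41, against 37). Cdkl1 had the most in sea lamprey, 38, followed by Prdm1 (34), and RECK the fewest, 19. Prdm1 and MPPED2 had the most in brook lamprey, 48 each. Short and long loci overlapped here in sea lamprey, with 24 to 30 and 19 to 38 peaks. Brook lamprey peaks outnumbered sea lamprey ones around all 11. Of the 311 sea lamprey peaks, 125 (40.2%) overlapped a brook lamprey peak, against 39.5% around the 10273 loci, and the share ran from 32.0% at tmem2 to 50% at Prdm1.

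Several of the 11 loci share ground with other assembled loci. On the opposite strand, XLOC_014863 covers 99.4% of the exonic bases of XLOC_015032, and Gse1 (76.7%), XLOC_035092 (64.6% by 1 such locus) and Cdkl1 (48.9%) are also covered in large part. Counting used the strand. XLOC_014863 did not change with XLOC_015032, with 57.0 to 59.9 normalised counts at T18, 40.4 and 81.9 at T20 and 52.9 to 77.8 at T21. XLOC_038163, opposite Cdkl1, had 1425 to 1675, 1221 and 1341, and 1086 to 1156, and was not called between T20 and T21 (edgeR adjusted p = 0.27). The loci opposite Gse1 and XLOC_035092 had too few counts to be tested.

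Inside introns of MPPED2, RECK and Cdkl1 lie 12 single-exon loci with no strand. They were low and summed to 145 to 249 normalised counts at T18, 110 and 209 at T20 and 18.4 to 50.0 at T21. As a share of the counts of those 3 genes they were 5.43% to 8.01%, 4.42% to 7.24% and 2.14% to 6.51%. Of all loci overlapping one of the 11, 11 could be tested, and 0 were called between T20 and T21 by edgeR or DESeq2, with a median log2 fold change of -1.65. At an unadjusted edgeR p under 0.05, 6 of them were lower, with no share of all loci at that level at hand, so nothing is read from this count.

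Most tested neighbours of the 11 loci were not called lower at T21. Within 50 kb lay 105 other loci, 33 of them spliced, and 34 had enough counts to be tested. Between T20 and T21, 5 of the 34 (14.7%) were lower and 0 higher by edgeR, against 4.4% and 5.4% of all loci, and the median log2 fold change was -0.30. DESeq2 called 5 of the 34 lower and 0 higher, against 1153 lower and 1765 higher of 26822 loci. At an unadjusted edgeR p under 0.05, 15 of the 34 were lower and 1 higher. No share of all loci at an unadjusted p is at hand, so nothing is read from these 2 counts. Without T21 replicate 2, 3 of the neighbours were called lower by edgeR. Between T18 and T21, 13 (38.2%) were lower and 4 (11.8%) higher, against 14.7% and 18.9%, and 2 were higher without T18 replicate 2 or without T18 replicate 3. Within 25 kb, 5 of 25 (20%) were lower than at T20 at a median log2 fold change of -0.79, and 11 (44%) were lower than at T18 at a median of -1.23. These include the tested loci that overlap one of the 11, whose medians were -1.65 and -1.56. Of the 25 spliced neighbours tested within 50 kb, 4 (16%) were lower and 0 higher than at T20, at a median of -0.19. Against T18, 9 (36%) of the spliced ones were lower and 4 (16%) higher, at a median of 0.06. The 34 neighbours include overlapping and adjacent loci that may belong to the same transcripts, so they are not independent.

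**Figure D4:**
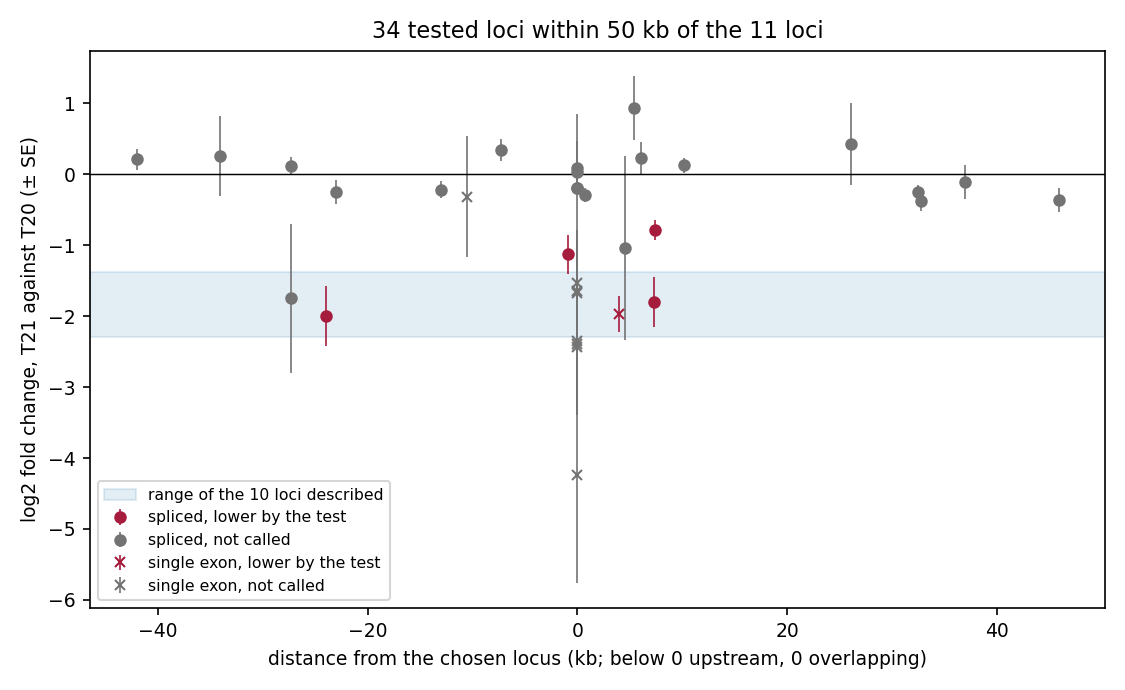
Log2 fold change from T20 to T21 (± SE, edgeR) of the 34 tested loci within 50 kb, by distance in kb from the locus (upstream below 0, overlapping at 0), with the range of the 10 loci shaded. The 5 called loci all lie within 25 kb, and none of the 34 was called higher.

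The 5 lower neighbours include a Hox gene. HOXB1 (XLOC_017509), a homeobox gene of the hindbrain, lies on the opposite strand from 2656261 to 2658515, 7309 bases beyond the end of XLOC_017729. Its normalised counts were 130, 228 and 234 at T18, 106 and 80.1 at T20 and 31.1, 21.4 and 27.8 at T21, a fall in each interval (edgeR log2 fold change T20 to T21 -1.81 ± 0.35, adjusted p = 0.0067; T18 to T20 -1.10, adjusted p = 0.037). The single-exon locus XLOC_018034 between them fell likewise, from 473 to 228 to 60.4 on average. XLOC_017729 was not called between T18 and T20 (edgeR log2 fold change -0.51 ± 0.21, SE; adjusted p = 0.12), an interval limited by the rule. Both of its T20 values nevertheless lay below all its T18 values, so no contrast with HOXB1 is drawn.

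Upstream of Gse1 by 868 bases, on the same strand, ends XLOC_022367, named Gse1/Rrbp1, with 623, 456 and 460 at T18, 300 and 155 at T20 and 119, 84.1 and 112 at T21 (edgeR log2 fold change T20 to T21 -1.13, adjusted p = 0.022). Downstream, the locus XLOC_022370 that also carries the name Gse1 rose instead, with means of 119, 211 and 252 (edgeR log2 fold change T18 to T21 1.04, adjusted p = 0.0012). Of the neighbouring loci that share the name, XLOC_022367 and Gse1 itself were thus lower in both intervals and XLOC_022370 was not, and whether they are pieces of 1 gene was not tested.

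Zfand5 (XLOC_008363), a zinc finger gene 7445 bases beyond tmem2, fell from 4224 at T18 to 1798 at T20 and 1048 at T21 and was called lower in both intervals (edgeR adjusted p = 6.1e-05 and 0.0034). XLOC_015033, upstream of XLOC_015032 on the same strand, fell from 59.7 at T20 to 14.8 at T21 (edgeR adjusted p = 0.011). AIM1 (XLOC_000682), 42030 bases upstream of Prdm1 on the other strand, went the other way, with means of 536, 2093 and 2433. It rose between T18 and T20 (edgeR log2 fold change 1.97, adjusted p = 4.1e-06), the interval in which Prdm1 kept its level, and was not called between T20 and T21 (adjusted p = 0.44).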

How the data were processed

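Per the study's methods, the authors mapped reads to the sea lamprey germline genome with STAR, assembled loci with Cufflinks and Cuffmerge, and counted read pairs with featureCounts by strand, multi-mapping reads included. The deposited count table holds raw counts. The deposited normalised table holds a signal: raw counts over a DESeq2 size factor set by the authors, checked in each library. The count table names 14 fields and holds 13, so columns were read by position against the normalised values. Deposited peak sets (Bowtie2, MACS2) hold positions only. Gene names came from the study's supplementary lists of selected loci (5028 named), so named loci do not make up whole families. Shares called among named loci are likewise not like for like with shares over all loci.

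Loci were fitted with edgeR 4.0.16 (TMM, filterByExpr, robust quasi-likelihood, stage as the term, all 8 libraries, Benjamini-Hochberg adjusted p under 0.05; 25317 loci), tested on simulated data. Alternatives were DESeq2 1.42.0, other scalings, filters, windows and left-out libraries. A transcript start peak lay within 1 kb. 1 member is not reported here. Named were the other members with a gene name, unnamed ones by lowest ratio (5) and highest level (3), the 5 loci nearest either side of the limit, and loci singled out for structure. Neighbours and loci of the lists were named after their values were seen. Members and lists were chosen with earlier results of these data known. The pooled library of T20 heads and embryos has no counts used here.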

Additional observations from a re-analysis of the deposited data

How the results depend on the processing

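The number of loci that met the rule was 30 with a limit of 0.6 at T21 and 5 with a narrower range of T20 over T18, and with 1 library left out it ran from 11 to 42 (42 without T20 replicate 2, 20 without T21 replicate 3). Other scalings gave 13 (TMM) and 15 (upper quartile, 8 of them among the 11). In all 286 refits of the 11 loci between T21 and T20 or T18 the direction and the call held. The rule chose these loci for a low T21 in the same libraries, so the refits could hardly fail and lend the fall no support. Loci called between T21 and T20 numbered 2481, and from 1255 to 3978 with 1 library left out (1255, 1331 and 1344 without T21 replicates 1, 2 and 3, and 3978 without T20 replicate 1). Between T20 and T18, 4391 were called, and 2821 with those libraries alone. Upper quartile scaling shifted the median log2 fold change of all loci to -0.18 (T21 against T18) and -0.11 (T20 against T18), and the share of calls that were higher from 56.3% to 43.5% and from 62.4% to 47.0%, and between T20 and T21 from 55.1% to 46.7%. The median of the 11 moved from -2.07 to -2.22 between T18 and T21.

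Whether replicate numbers pair the libraries could not be settled. Correlations of same-numbered deviations from the stage mean ran from -0.06 to 0.14, and those of other pairs from -0.14 to 0.14. With 2 or 3 libraries per stage the deviations depend on each other, so these values cannot show or exclude pairing. With the replicate block, 1709 loci were called between T21 and T20, 8157 between T21 and T18 and 3541 between T20 and T18. All 11 loci stayed called lower at T21, which their choice by the rule made likely.

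Peaks around a locus had medians of 17 and 48 (sea lamprey) and 26 and 68 (brook lamprey) at 25 and 100 kb. When a shared peak had to cover 0.5 of the sea lamprey peak, 30.9% were shared. By the longest transcript, 90.9% of the loci had more than 1 exon and the median exonic length was 5464 bases. Neighbours called lower at T21 numbered 3 to 6 (T20) and 10 to 15 (T18) over alternatives added after the data were seen. Stage T20 rests on 2 libraries, and tmem2 on as few as 24 counts in a library.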
